A study of Sus scrofa with 11 samples.

Results

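The MHC class II genes of the pig, their invariant chain CD74 and the transactivator CIITA were examined in diabetic and non-diabetic minipig wounds. The members were the 10 genes of the expression table, out of 30376, whose symbol was SLA-DRA, SLA-DRB1, SLA-DQA1, SLA-DQB1, SLA-DMA, SLA-DMB, SLA-DOA, SLA-DOB, CD74 or CIITA. RNA came from full-thickness dorsal punch wounds of Yucatan minipigs at day 10, with 1 library per wound. The diabetic group was 7 wounds of 1 female minipig, given streptozotocin, which destroys the insulin-producing beta cells, at 6 months of age, and its insulin was stopped before wounding. The non-diabetic group was 4 wounds of 1 Yucatan minipig that was wounded in the same way. The spread within a group is therefore between wounds of 1 animal, and diabetes cannot be told apart from any other difference between these animals, including their alleles at the class II locus.

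MHC class II molecules carry peptides from engulfed proteins to the cell surface, where CD4+ T cells read them. Each molecule is an alpha chain paired with a beta chain. In the pig the presenting pairs are DR and DQ. CD74 holds new pairs and guides them to endosomes. There the DM pair removes the CD74 remnant and helps load a peptide, and the DO pair restrains DM, mostly in B cells and some dendritic cells. CIITA switches these genes on. It does not bind DNA itself but sits on factors that hold the X and Y boxes of their promoters, and interferon gamma induces it in cells that do not make class II constantly. In skin, macrophages, dendritic cells, Langerhans cells and B cells are the usual sources of class II.

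The proximal promoters of several members are shown because X and Y boxes are where the partners of CIITA bind. RefSeq start sites of Sscrofa11.1 were used, with windows from 250 bases before to 50 bases after the start. Each stretch is written 5′ to 3′ on the strand of its gene. The capitals mark an AAC, the first letters of the X1 core, and an ATTGG, the Y core, at the spacing of the looser pattern given after the list. They do not mark full X1 cores.
SLA-DRA, chr7:24824958-24825009, plus strand: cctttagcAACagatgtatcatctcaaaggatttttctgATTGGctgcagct
SLA-DRB1, chr7:24914069-24914119, minus strand: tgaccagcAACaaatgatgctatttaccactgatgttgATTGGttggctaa
SLA-DQA1, chr7:24953376-24953427, plus strand: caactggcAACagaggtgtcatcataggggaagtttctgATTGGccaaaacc
SLA-DMA, chr7:25137980-25138033, minus strand: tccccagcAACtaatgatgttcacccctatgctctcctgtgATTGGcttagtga
SLA-DMB, chr7:25125127-25125178, minus strand: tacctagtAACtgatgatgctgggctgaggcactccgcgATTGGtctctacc
SLA-DOA, chr7:25182743-25182794, minus strand: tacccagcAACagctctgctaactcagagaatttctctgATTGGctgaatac
LOC100153139, chr7:24894343-24894393, minus strand: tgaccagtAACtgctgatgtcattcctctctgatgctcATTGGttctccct

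The last of these is a DR beta-like gene beside SLA-DRB1, shown because it was called in the comparison given further on. With the letters AACNGAT for the X1 core and ATTGG for the Y core on the same strand, 10 to 40 bases apart, on either strand, 2 of the 10 members (SLA-DRA and SLA-DMB) held the pair. Of all 30353 windows, 0.155% held it. The Y core alone was in all 10 members, but also in 35.9% of all windows, and the X1 core alone was in 6.55%. A looser pair, chosen after the windows had been seen, asked only for AAC with ATTGG or CCAAT starting 28 to 34 bases after it. CCAAT is the Y core read on the other strand. The looser pair was found in 7 members, each time with ATTGG. In 6 of them it was on the strand of the gene as printed, and in SLA-DQB1 on the other strand. Of all windows, 6.52% held the looser pair, with either ATTGG or CCAAT. These matches describe letters in a window and are not binding sites shown by these data.

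Of the members, 8 lie on chromosome 7, between positions 24825037 and 25182665 of Sscrofa11.1. SLA-DRA (24825037-24830650, plus strand) comes first. SLA-DRB1 (24901386-24914016, minus), SLA-DQA1 (24953472-24959313, plus) and SLA-DQB1 (24969034-24977238, minus) follow. SLA-DOB (25030435-25038196), SLA-DMB (25119278-25125089), SLA-DMA (25133494-25137928) and SLA-DOA (25178866-25182665) are on the minus strand. CD74 is on chromosome 2 (151402210-151409924, minus) and CIITA on chromosome 3 (32171706-32230775, minus). Each value is the level of the whole gene, summed over its exons. SLA-DMA and SLA-DMB lie inside the span of BRD2 (25096579-25162591), a gene on the opposite strand. The libraries kept the strand, but whether the counting used it is not given in the sources used here. BRD2 itself averaged 21.6 ± 0.947 FPKM (SD, n = 7) in the diabetic group and 23.6 ± 1.61 (SD, n = 4) in the other.

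The libraries held 28314785 to 40168372 reads on genes. Levels are in FPKM, which are reads scaled to gene length and library, and 1 read on a gene of 2 kb was worth 0.0112 to 0.0194 FPKM. Diabetic replicate 4 and non-diabetic replicate 1 stood apart from the other wounds on the main axis of variation over all genes, which held 44.5% of the variance. Both had little keratinocyte RNA. The 7 keratinocyte markers found summed to 34.3 FPKM in diabetic replicate 4, against 1555 to 6193 FPKM in the other diabetic wounds. They summed to 250 FPKM in non-diabetic replicate 1, against 1301 to 2349 FPKM in the other non-diabetic wounds. Results are therefore also given without these wounds where that changes a call.

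Class II RNA was abundant in every wound. FPKM is per length, so levels can be ordered between genes. In diabetic wounds CD74 was highest (606 ± 167 FPKM, SD, n = 7), followed by SLA-DRA, SLA-DQA1 and SLA-DQB1. Then came SLA-DMB, SLA-DMA and SLA-DRB1, and far below them SLA-DOA, CIITA and SLA-DOB. In diabetic wounds SLA-DRA exceeded SLA-DQA1, and SLA-DQA1 exceeded SLA-DQB1, in 7 of 7 wounds. CD74 exceeded SLA-DRA in 5 of 7 wounds, and SLA-DMB exceeded SLA-DMA in 5 of 7, so these neighbours do not keep 1 order. In non-diabetic wounds SLA-DQA1 stood at the top (396 ± 46.5 FPKM, SD, n = 4), but it exceeded CD74 in only 2 of 4 wounds, and CD74 exceeded SLA-DRA in 2 of 4. The steps from SLA-DQB1 to the next gene, from SLA-DOA to CIITA, and down to SLA-DOA were free of overlap in both groups.

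**Figure D1:**
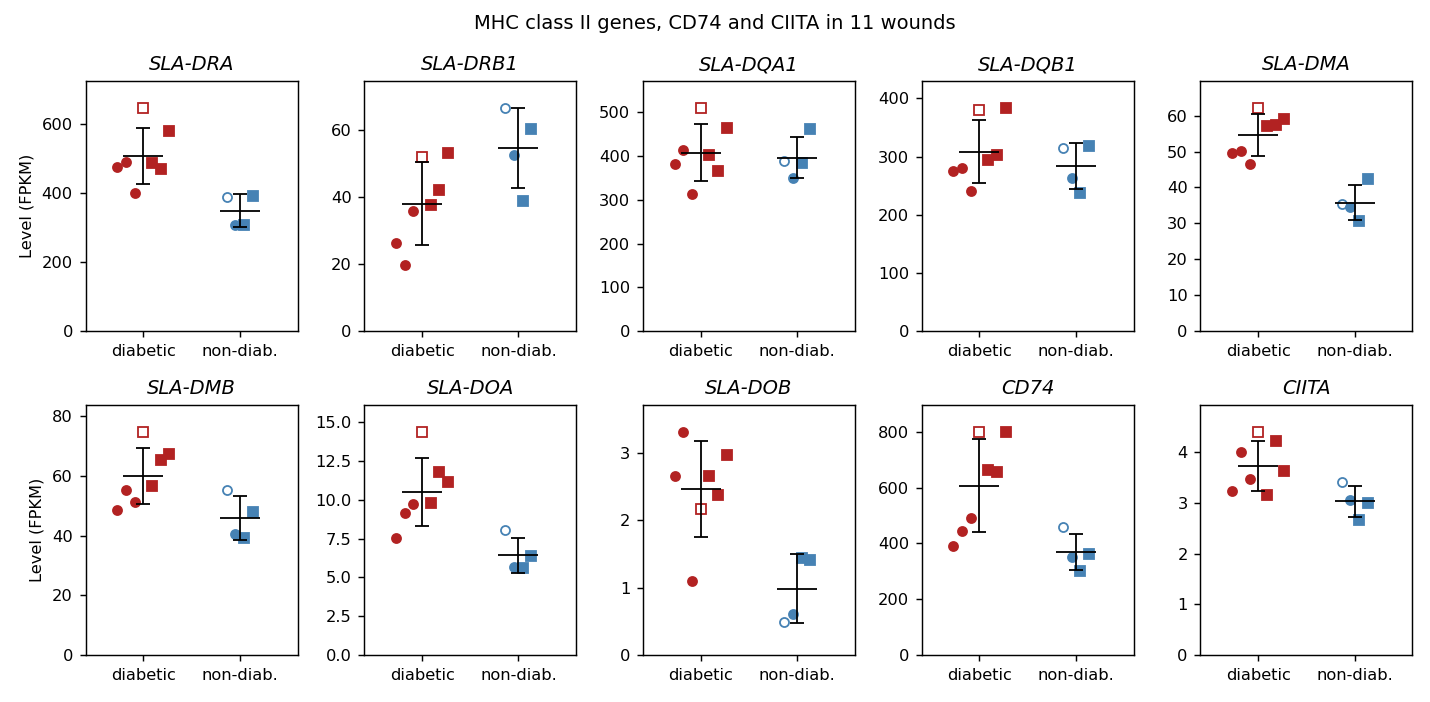
Level in FPKM (vertical axes, each starting at 0) of the 10 genes in 7 diabetic (red) and 4 non-diabetic (blue) wounds. Circles and squares are libraries whose names start with L and R, open symbols are diabetic replicate 4 and non-diabetic replicate 1, and the bars give the mean ± SD. The groups separate for SLA-DRA and SLA-DMA, and SLA-DRB1 is the only gene with a lower mean in diabetic wounds.

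Diabetic wounds had more SLA-DMA and SLA-DOA RNA, and no member was called lower. A gene was called at an adjusted p under 0.05 and a log2 fold change beyond 0.5 in the limma comparison over 13956 genes. By this rule 2 of the 10 members were called higher, where 1.35% of all genes were called higher and 1.66% lower. Every diabetic wound lay above every non-diabetic wound for 2 of the 10 members, SLA-DRA and SLA-DMA, and for 2.69% of all genes. For the opposite order the counts were 0 of 10 members and 2.96% of all genes. The other 8 members overlapped. The log2 fold change was above 0 for 9 members, with a median of 0.46 over the members and 0.01 over all genes tested. In bulk tissue, more cells of a type and more RNA per cell cannot be told apart.

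Among the presenting chains, SLA-DRA, the alpha chain of DR, which varies little between animals, ranged from 401 to 646 FPKM in diabetic wounds, with a median of 487. In non-diabetic wounds it was 387, 308, 309 and 392 FPKM. The highest non-diabetic wound lay just below the lowest diabetic wound. The means were 507 ± 80.5 (SD, n = 7) and 349 ± 46.9 FPKM (SD, n = 4). On the log2 scale the difference was 0.53 ± 0.13 (SE), and the limma adjusted p of 0.0533 missed the threshold. The exact two-sided permutation test over the 330 splits of the wounds gave p = 0.00303, the smallest value that this design allows. Of the 11 fits that left out 1 wound, the gene was called in 1, without diabetic replicate 3, its lowest diabetic wound (adjusted p of 0.0421). The other fits gave 0.0599 to 0.171.

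SLA-DRB1, the polymorphic beta chain that pairs with SLA-DRA, went the other way. It ranged from 19.6 to 53.0 FPKM in diabetic wounds, with a median of 37.5. In non-diabetic wounds it was 66.5, 52.4, 38.7 and 60.1 FPKM. The groups overlapped, because diabetic replicates 4, 6 and 7 exceeded non-diabetic replicate 3. Limma gave a log2 fold change of -0.56 ± 0.26 (SE), with an adjusted p of 0.286. The 3 diabetic libraries named with L (19.6 to 35.9 FPKM) lay below both non-diabetic L libraries, by 1.14 on the log2 scale. Among libraries named with R the difference was -0.08 and the groups overlapped.

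The DQ pair showed no detectable difference in level. SLA-DQA1, its alpha chain, ranged from 313 to 510 FPKM in diabetic wounds, with a median of 402, and was 389, 350, 383 and 460 FPKM in non-diabetic wounds. Every non-diabetic value fell inside the diabetic range. Limma gave a log2 fold change of 0.03 ± 0.13 (SE), with an adjusted p of 0.929. SLA-DQB1, its beta chain, ranged from 242 to 384 FPKM, with a median of 294, against 314, 262, 238 and 318 FPKM. Its log2 fold change was 0.11 ± 0.14 (SE), with an adjusted p of 0.728 in limma. The sign of both small differences turned when the libraries were quantile-normalised, to -0.15 for SLA-DQA1 and -0.042 for SLA-DQB1.

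Of the peptide-loading genes and their inhibitors, SLA-DMA and SLA-DOA were called higher, and SLA-DMB and SLA-DOB did not pass the test. SLA-DMA, the alpha chain of DM, ranged from 46.6 to 62.2 FPKM in diabetic wounds, with a median of 57.1. In non-diabetic wounds it was 35.4, 34.5, 30.8 and 42.4 FPKM, and no wound crossed. The means were 54.6 ± 5.76 (SD, n = 7) and 35.8 ± 4.86 FPKM (SD, n = 4). SLA-DMA rose by 0.60 ± 0.11 on the log2 scale (SE), with an adjusted p of 0.0123 in limma. Its coefficient of variation was 10.6% over diabetic wounds, the lowest of the members there, and 13.6% over non-diabetic wounds, where CIITA, SLA-DQA1 and SLA-DRA varied less. The call stood in each of the 11 fits that left out 1 wound. Without both wounds that stood apart the difference was 0.57 with an adjusted p of 0.0604. The difference was 0.47 within L libraries and 0.70 within R libraries, where separation follows from that over all wounds.

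SLA-DMB, the beta chain of DM, averaged 60.0 ± 9.48 FPKM (SD, n = 7) in the diabetic group and 45.8 ± 7.33 (SD, n = 4) in the other. It ranged from 48.7 to 74.9 FPKM in diabetic wounds, with a median of 56.8, and was 55.1, 40.7, 39.2 and 48.0 FPKM in non-diabetic wounds. Only non-diabetic replicate 1 reached into the diabetic range. The log2 fold change was 0.38 ± 0.14 (SE), with an adjusted p of 0.153 in limma and an exact permutation p of 0.0242.

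SLA-DOA, the alpha chain of the DM inhibitor, ranged from 7.54 to 14.4 FPKM in diabetic wounds, with a median of 9.82. In non-diabetic wounds it was 8.06, 5.68, 5.63 and 6.37 FPKM. The groups overlapped by a single crossing, diabetic replicate 1 below non-diabetic replicate 1. SLA-DOA rose by 0.66 ± 0.16 on the log2 scale (SE), with an adjusted p of 0.0462 in limma. The call was close to the threshold. It was lost without diabetic replicate 3, 5, 6 or 7 and without any of the 4 non-diabetic replicates, with adjusted p values of 0.0554 to 0.152.

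SLA-DOB, the beta chain of DO, had the largest fold difference of the 10 and the fewest reads, 94 to 321 in diabetic and 30 to 119 in non-diabetic libraries. It ranged from 1.10 to 3.32 FPKM in diabetic wounds, with a median of 2.65. In non-diabetic wounds it was 0.484, 0.609, 1.43 and 1.41 FPKM. Diabetic replicate 3 fell among the non-diabetic wounds, and the other 6 diabetic wounds lay above all of them. The log2 fold change was 1.02 ± 0.26 (SE), with an adjusted p of 0.0540 in limma and an exact permutation p of 0.00909. It was called in 1 of the 11 fits that left out 1 wound, without diabetic replicate 3, its lowest diabetic wound (adjusted p of 0.0202). In the others the adjusted p was 0.0668 to 0.166. From wound to wound SLA-DOB did not follow the mean of the other members, as the likeness values given later show.

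CD74, the invariant chain, averaged 606 ± 167 FPKM (SD, n = 7) in the diabetic group and 369 ± 66.0 (SD, n = 4) in the other. It ranged from 391 to 801 FPKM in diabetic wounds, with a median of 657, and was 460, 351, 302 and 363 FPKM in non-diabetic wounds. The log2 fold change was 0.68 ± 0.21 (SE), with an adjusted p of 0.108 in limma and an exact permutation p of 0.0182. The diabetic wounds split by the letter of the library name, with 391 to 490 FPKM in the 3 L libraries and 657 to 801 FPKM in the 4 R libraries. The difference from non-diabetic wounds was 0.13 among L libraries, where the groups overlapped, and 1.13 among R libraries, where they did not. What the letter stands for is not given in the labels. The gene was called in 1 of the 11 fits that left out 1 wound, without diabetic replicate 1, its lowest diabetic wound (adjusted p of 0.0479). The other fits gave 0.0797 to 0.296.

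CIITA itself averaged 3.73 ± 0.489 FPKM (SD, n = 7) in the diabetic group and 3.04 ± 0.308 (SD, n = 4) in the other. It ranged from 3.15 to 4.41 FPKM in diabetic wounds, with a median of 3.63, and was 3.41, 3.07, 2.66 and 3.00 FPKM in non-diabetic wounds. Diabetic replicates 1 and 5 lay below non-diabetic replicate 1. It differed by 0.26 ± 0.11 on the log2 scale (SE), with an adjusted p of 0.235 in limma and an exact permutation p of 0.0333.

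**Figure D2:**
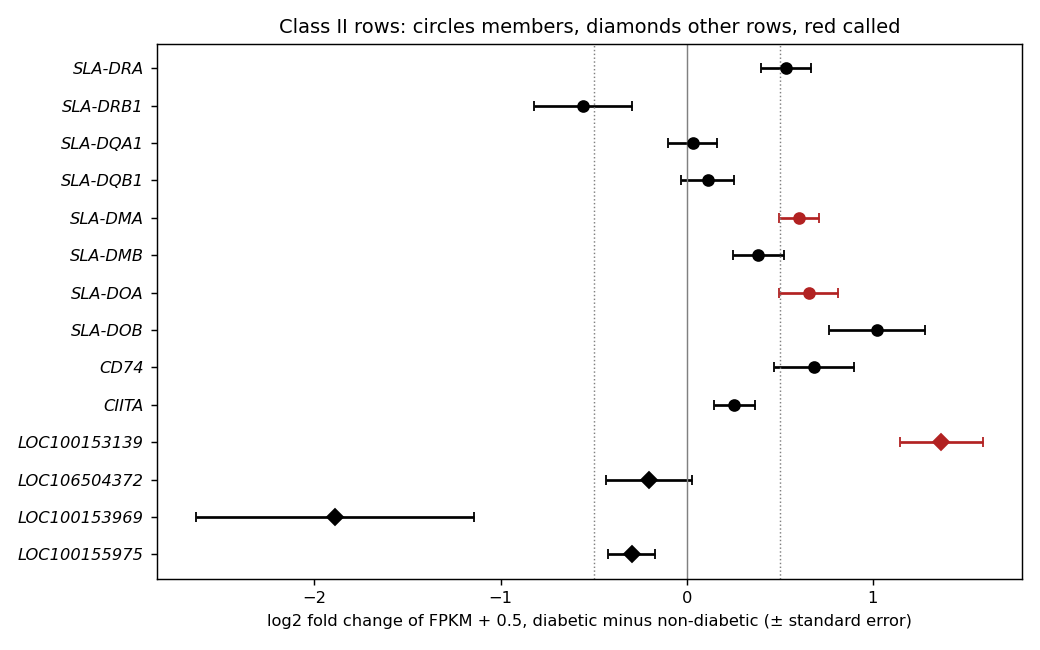
Log2 fold change of FPKM + 0.5, diabetic minus non-diabetic, with its standard error, for the 10 members (circles) and for 4 further class II genes that were tested (diamonds). Red marks genes called at an adjusted p under 0.05 and a log2 fold change beyond 0.5 (dotted lines); SLA-DMA, SLA-DOA and LOC100153139 are called, and SLA-DRB1 lies to the left of 0.

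The members were also compared with each other inside each wound, which removes whatever scales a whole wound. Each of the other 9 genes was divided by SLA-DRA of the same wound. For 3 of the 9 ratios all diabetic wounds were under all non-diabetic ones, and for 0 of 9 over them. SLA-DRA is itself among the genes with higher values in diabetic wounds, so a falling ratio to it is common. Of all genes tested, 21.3% had this pattern, and 0.444% had the opposite one. The p values that follow are exact, two-sided and unadjusted over the 9 ratios.

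SLA-DQA1 amounted to 77.6% to 84.9% of SLA-DRA in the 7 diabetic wounds and to 100.4% to 124% in the 4 non-diabetic wounds. The alpha chain of DQ was thus below that of DR in every diabetic wound and above it in every non-diabetic wound. The log2 ratio differed by -0.50, with an exact permutation p of 0.00303. The ratio hardly varied within the diabetic animal, with an SD of 0.05 on the log2 scale over wounds, against 0.13 in the non-diabetic animal. SLA-DQB1 behaved alike, with 57.3% to 66.3% of SLA-DRA against 77.0% to 85.2%. Its log2 ratio differed by -0.42, with an exact permutation p of 0.00303.

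SLA-DRB1 had the largest difference among the 9 ratios to SLA-DRA. It amounted to 4.01% to 9.17% of SLA-DRA in diabetic wounds and to 12.5% to 17.2% in non-diabetic wounds, a log2 difference of -1.10 with an exact permutation p of 0.00303. Groups that do not overlap over all wounds cannot overlap in a part of them, so only sizes are informative for parts. Without the wounds that stood apart the differences were -0.56 for SLA-DQA1, -0.41 for SLA-DQB1 and -1.07 for SLA-DRB1. The exact permutation p was then 0.0119 for each, a value fixed by the separation over all wounds. Within L and within R libraries the SLA-DRB1 ratio differed by -1.55 and -0.72. The SLA-DQA1 ratio differed by -0.40 and -0.60, and the SLA-DQB1 ratio by -0.51 and -0.34.

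The remaining ratios to SLA-DRA overlapped between the groups. SLA-DMA amounted to 9.62% to 12.2% of SLA-DRA in diabetic and to 9.14% to 11.2% in non-diabetic wounds, a log2 difference of 0.08 with an exact permutation p of 0.352. CD74 ranged from 82.0% to 140% of SLA-DRA in diabetic and from 92.5% to 119% in non-diabetic wounds, with an exact permutation p of 0.376. SLA-DOB differed by 0.89, with an exact permutation p of 0.0455 before any adjustment. CIITA differed by -0.24, with an exact permutation p of 0.0970. SLA-DMB and SLA-DOA differed by -0.15 and 0.16.

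**Figure D3:**
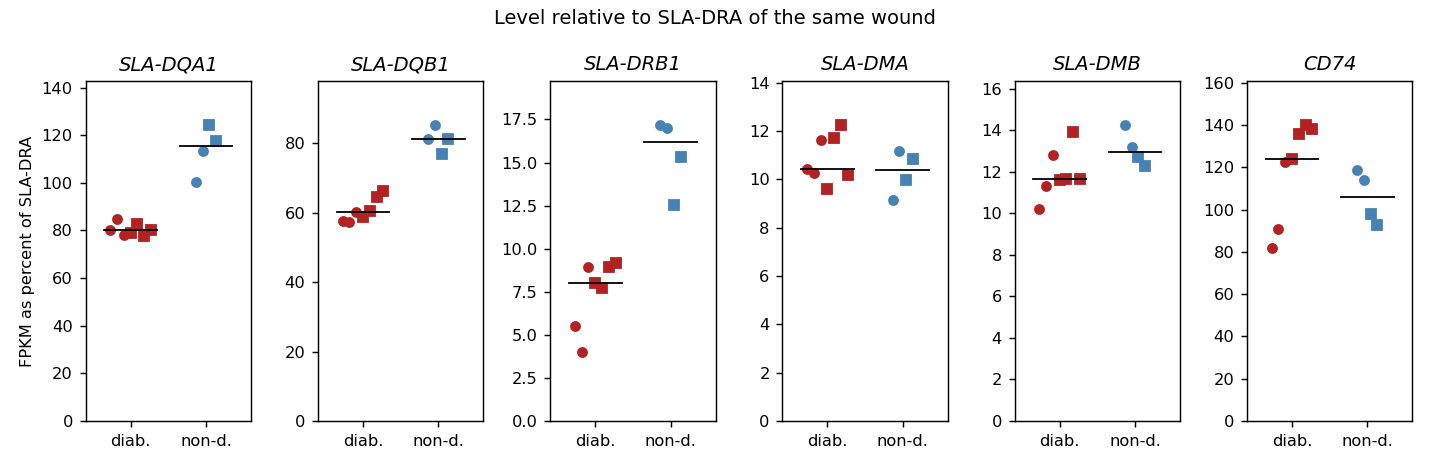
FPKM of 6 members as a percentage of SLA-DRA in the same wound (vertical axes, each starting at 0) in 7 diabetic (red) and 4 non-diabetic (blue) wounds, with the median as a line. Circles and squares are L and R libraries. SLA-DQA1, SLA-DQB1 and SLA-DRB1 separate the groups, and SLA-DMA, SLA-DMB and CD74 do not.

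The outcome of such ratios depends on the gene divided by. With CD74 as the divisor only SLA-DRB1 separated, lower in diabetic wounds, as did 21.1% of all genes. With PTPRC, the pan-leukocyte gene CD45, as the divisor only SLA-DOB separated. It amounted to 12.3% to 32.3% of PTPRC in diabetic and 5.44% to 10.6% in non-diabetic wounds, a log2 difference of 1.43 with an exact permutation p of 0.00303. Of all genes, 0.745% separated in this direction. PTPRC averaged 11.8 ± 3.50 FPKM (SD, n = 7) in the diabetic group and 11.7 ± 2.85 (SD, n = 4) in the other.

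Of the 4 alpha and beta pairs, DR was the one whose ratio separated the groups, by a ratio to SLA-DRA that separated in the same direction for 21.3% of all genes. SLA-DQB1 amounted to 67.5% to 83.1% of SLA-DQA1 in diabetic and 62.0% to 80.9% in non-diabetic wounds, with an exact permutation p of 0.352. SLA-DMB amounted to 98.0% to 120% of SLA-DMA, against 113% to 156%, with an exact permutation p of 0.0242 and overlapping groups. SLA-DOB amounted to 11.3% to 36.2% of SLA-DOA, against 6.00% to 25.4%, with an exact permutation p of 0.167. These 4 comparisons are unadjusted.

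The DR beta locus holds further genes in this annotation, and their reads bear on SLA-DRB1. Another 5 genes of the table are described as class II antigens or as similar to one. LOC100153139 (chromosome 7, 24882212-24894226, minus) is annotated as a DR beta-like chain. It ranged from 9.41 to 17.9 FPKM in diabetic wounds, with a median of 14.2, and was 5.69, 4.61, 2.79 and 5.96 FPKM in non-diabetic wounds. No wound crossed. LOC100153139 rose by 1.37 ± 0.22 on the log2 scale (SE), with an adjusted p of 0.0072 in limma, opposite in direction to the SLA-DRB1 difference.

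LOC106504372, a short DR beta-like gene, had 16.7 ± 4.99 FPKM (SD, n = 7) and 18.8 ± 3.69 FPKM (SD, n = 4), with an adjusted p of 0.703 in limma. The pseudogene LOC100153969 varied widely from wound to wound. It was listed at 0 in diabetic replicates 6 and 7 and reached 5.27 FPKM in diabetic replicate 2, against 1.49 to 8.09 FPKM in non-diabetic wounds (limma adjusted p of 0.202). The non-coding RNA LOC100155975, which the table likens to a DO beta chain, was lower in every diabetic wound, 0.330 to 0.755 against 0.759 to 0.893 FPKM. Its limma adjusted p was 0.242.

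Sequences of the DR beta genes overlap, so reads can be exchanged between them. Of the stretches of 50 bases in the SLA-DRB1 transcripts, 31.4% also occurred in LOC100153139, and 68.8% of those of LOC106504372 occurred in SLA-DRB1. No stretch of 50 bases was shared with another class II gene by SLA-DRA, SLA-DQA1, SLA-DQB1, SLA-DMA, SLA-DMB or SLA-DOA. The DR beta alleles of an animal and diabetes cannot be told apart here.

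The reads were therefore also summed over the 5 DR beta genes, LOC100513097 included. SLA-DRB1 held 65.1% to 80.2% of them in diabetic and 86.3% to 88.7% in non-diabetic wounds. LOC100153139 held 14.6% to 22.4% and 4.24% to 5.98%. Both shares separated the groups. The sum of all DR beta reads amounted to 6.76% to 12.9% of the SLA-DRA reads in diabetic wounds and to 16.0% to 21.7% in non-diabetic wounds. That log2 difference of -0.88 had an exact permutation p of 0.00303. The lower DR beta to alpha balance was thus also present when reads were summed over these genes, most of them SLA-DRB1 reads. The divisor is again SLA-DRA, against which 21.3% of all genes separated in this direction. Reads that were assigned to none of the 5 genes are not in the table.

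**Figure D4:**
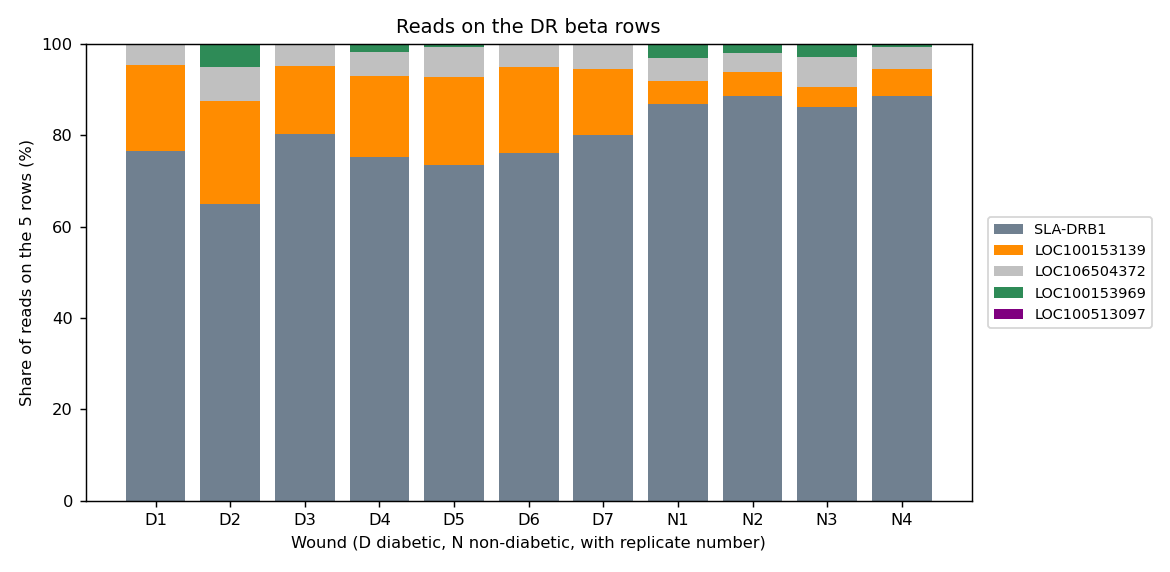
Share of reads (vertical axis, percent) that each of 5 DR beta genes held in the 7 diabetic (D) and 4 non-diabetic (N) wounds, as stacked bars. LOC100153139 (orange) holds 14.6% to 22.4% in diabetic and 4.24% to 5.98% in non-diabetic wounds.

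Most members varied together from wound to wound. Likeness was measured as Pearson's r over the 11 wounds, after the mean of each group was removed, between a gene and the mean of the other members. It is a description, and the wounds share their animals, libraries and tissue makeup. It was 0.95 for SLA-DQB1, 0.94 for SLA-DMB, 0.90 for SLA-DRA, 0.85 for SLA-DMA and 0.83 for CD74. It fell to 0.55 for CIITA and 0.04 for SLA-DOB. Against single members, r for SLA-DOB ranged from -0.32 with SLA-DRB1 to 0.57 with SLA-DQA1. The closest pair was SLA-DRA with SLA-DQB1, at 0.95, followed by SLA-DMB with SLA-DOA at 0.94. SLA-DRB1 followed CD74 at 0.90 more than its partner SLA-DRA at 0.57. Diabetic replicate 4 held the highest level of SLA-DRA, SLA-DQA1, SLA-DMA, SLA-DMB, SLA-DOA, CD74 and CIITA among diabetic wounds.

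The 10 other genes most like the members by this measure were PRCP, LAT, GBX1, EBI3, DCAF5, SLA-2, NPL, LOC100523732, TMEM50A and CD93, with r from 0.97 for PRCP to 0.90 for CD93. None of them was called. TMEM50A had an adjusted p of 0.0224 in limma, but its log2 fold change of 0.38 was under the threshold. SLA-2 is a classical class I gene of the pig MHC, LAT an adaptor of T cell receptor signalling and EBI3 a cytokine subunit. SLA-2 averaged 99.3 ± 18.0 FPKM (SD, n = 7) in the diabetic group and 112 ± 10.4 (SD, n = 4) in the other.

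CIITA was set against each of the other 9 members over the 7 diabetic wounds, which all come from 1 animal. Pearson's r ranged from 0.07 for SLA-DOB to 0.74 for SLA-DOA, with a median of 0.45, and 0 of the 9 had an exact permutation p under 0.05. For SLA-DOA the exact permutation p was 0.0546, and Spearman's rho was 0.64 with an exact permutation p of 0.139. For SLA-DMB r was 0.72 (exact permutation p = 0.0788) and rho was 0.64 (exact permutation p = 0.139). Without the 2 wounds farthest from the CIITA median, the median r was 0.20, and r for SLA-DOA was 0.27. Without diabetic replicate 4 alone the median r was 0.17. After log2 PTPRC was subtracted from both sides the median r was 0.88, but subtracting the same gene from both sides itself raises r.

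Genes that act with CIITA and upstream of it were listed with earlier results of these data known. None of the 12 class II transcription factors, which include the RFX and NF-Y subunits that hold the X and Y boxes, was called, and their median log2 fold change was -0.13. The most abundant was RFXANK, an RFX subunit, with means of 17.5 FPKM in the diabetic and 17.1 in the non-diabetic group. Of 16 genes of the interferon gamma signal, 15 were tested and 0 were called, with a median of 0.04. The most abundant, the receptor chain IFNGR2, averaged 47.5 and 46.2 FPKM. IFNG itself averaged 0.0906 and 0.0822 FPKM, below the filter for testing. None of 7 genes listed for repression of CIITA or for control of class II turnover was called (median 0.07). Their most abundant gene, TGFB1, averaged 31.2 and 23.7 FPKM, with an adjusted p of 0.127 in limma.

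Endosomal processing genes, which include the enzymes that cut antigens and CD74, showed 0 of 16 called and a median of 0.20. AP2A1 had an adjusted p of 0.0217 in limma, but its log2 fold change of 0.40 was under the threshold. CST3, the cysteine protease inhibitor cystatin C, was the most abundant, at 2046 and 2045 FPKM as means. Among genes of co-stimulation and class II receptors of T cells, 9 of 12 were tested and 0 called (median 0.14). CD40, which delivers T cell help to antigen-presenting cells, averaged 18.1 and 14.9 FPKM with an adjusted p of 0.128 in limma.

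Some markers of cells that carry class II were also called higher. Of 14 macrophage and monocyte markers, 4 were called higher and 0 lower (1.35% and 1.66% over all genes), with a median of 0.62. These were CD14, the lipopolysaccharide co-receptor (0.76 ± 0.18, SE), MARCO, a scavenger receptor (1.80 ± 0.27), MRC1, the mannose receptor (0.73 ± 0.12), and ITGAM, an integrin chain (1.22 ± 0.19). Their adjusted p values in limma were 0.0390, 0.00419, 0.00585 and 0.00585. The log2 fold change was above 0 for 13 of the 14 markers, and -0.29 for MSR1. CD14 was not called without the wounds that stood apart (adjusted p of 0.0918). Of the fits that left out 1 wound it was called without diabetic replicate 1 or 2, and the other 9 gave 0.0587 to 0.139. The summed macrophage level was 831 to 1840 FPKM in the diabetic group, overlapping the 543 to 993 FPKM of the other group. C1QB, a complement subunit and the most abundant marker, averaged 322 and 196 FPKM, with an adjusted p of 0.223 in limma. The macrophage sum was highest in diabetic replicates 4 and 7, the wounds with the highest CD74. The part of this in the CD74 difference was not tested.

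Of the B cell markers, 6 of the 9 found were tested and 3 were called higher (1.35% over all genes), with a median of 0.90. CD79A and CD79B, the signalling chains of the B cell receptor, rose by 1.74 ± 0.21 and 1.19 ± 0.25 on the log2 scale (SE). FCRLA, an intracellular Fc receptor-like protein of B cells, rose by 1.28 ± 0.18. The adjusted p values in limma were 0.00103, 0.0256 and 0.00319. CD79B was not called without the wounds that stood apart (adjusted p of 0.101). It was also lost without diabetic replicate 3 or 5 and without any 1 of the 4 non-diabetic replicates, at 0.0524 to 0.0872. The summed B cell level separated the groups, with 11.5 to 19.8 FPKM in the diabetic group against 7.56 to 10.4 in the other. Of single genes, 2.69% separated in this direction. The most abundant marker, BANK1, averaged 4.13 and 4.58 FPKM and was not called. The defining B cell genes MS4A1 and PAX5 averaged 0.234 and 0.0619 FPKM in diabetic wounds and were not tested. SLA-DOB, the member most restricted to B cells, was highest in diabetic replicate 2, which also had the highest B cell sum. In diabetic replicate 3 SLA-DOB was lowest while the B cell sum was 16.5 FPKM. The part of B cell markers in the SLA-DOB and SLA-DOA differences was not tested.

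Among 12 dendritic cell markers, 10 were tested and 1 was called. This was IRF4, a transcription factor of dendritic cells that B and plasma cells also use, which rose by 1.32 ± 0.24 on the log2 scale (SE), with an adjusted p of 0.0125 in limma. FSCN1 was the most abundant, at 187 and 168 FPKM, and CLEC10A was at or near 0 throughout. The list median was 0.23. The Langerhans cell markers CD207 and EPCAM were not called (median 0.63), nor were the 5 pan-leukocyte markers (median 0.08) or 8 tested T cell markers (median 0.26). LAPTM5, the most abundant pan-leukocyte gene, averaged 91.1 and 87.5 FPKM, and CD3E, of the T cell receptor complex, 6.01 and 4.80 FPKM. The 8 endothelial, 7 keratinocyte and 8 fibroblast markers had 0 called, with medians of -0.02, 0.25 and -0.15.

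**Figure D5:**
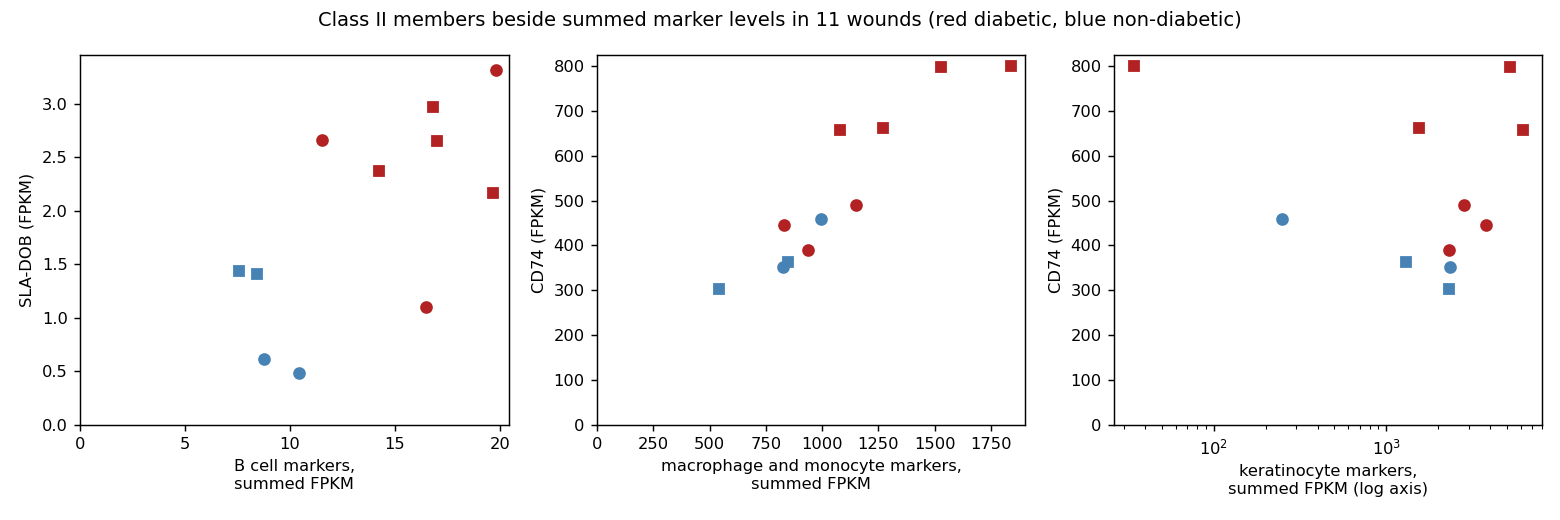
SLA-DOB against the summed FPKM of 9 B cell markers, and CD74 against the sums of 14 macrophage and monocyte markers and of 7 keratinocyte markers (log axis), in 7 diabetic (red) and 4 non-diabetic (blue) wounds, with circles for L and squares for R libraries. The 4 diabetic R libraries hold the highest CD74, at 657 to 801 FPKM, and the diabetic wounds lie to the right of the non-diabetic wounds on the B cell axis.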

How the data were processed

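RNA of 7 diabetic and 4 non-diabetic wounds was sequenced from poly-A selected, strand-specific libraries. Per the labels, the authors used fastp, HISAT2 2.2.1, StringTie 2.2.3 and featureCounts 2.0.6 with Sscrofa11.1. The deposited values are FPKM per gene, made by the authors; the formula and the strand setting of the counting are not given in the sources used here. Reads were recovered as FPKM times gene length times a factor per library, and 100.0% of them were whole to within 0.05. Depth was 28314785 to 40168372 reads on genes.

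Of 30376 genes, 13956 reached 0.5 FPKM in 4 or more libraries and were compared on log2(FPKM + 0.5) with limma 3.58.1 (R 4.3.3; eBayes with a mean trend), with p values adjusted by Benjamini-Hochberg. This scale understates changes of low genes. The study itself tested read counts with a count model, and named SLA-DRA, SLA-DMA and SLA-DOB among its upregulated genes. Why SLA-DRA and SLA-DOB were not called here was not tested. A call needed an adjusted p below 0.05 together with a log2 fold change beyond 0.5 in either direction. Single genes and ratios were also compared with two-sided exact permutation tests, computed with numpy 2.4.6. The fit was tested on simulated data. Wounds of 1 animal are replicates of that animal only.

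The members and lists were chosen with earlier results of these data known. Genes named are the members, other class II genes, each list's called and most abundant genes, the 10 genes most like the members, and BRD2 and PTPRC. MS4A1, PAX5, IFNG, CLEC10A, MSR1 and AP2A1 were added after their values were seen. Alternatives were other pseudocounts, filters and normalisations, voom on the recovered reads, array weights, a replicate block, the library letter, and leaving out wounds. Promoters were read from the RefSeq genome of the same build, in which 30335 gene identifiers of the table were found.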

Additional observations from a re-analysis of the deposited data

Results flagged for a closer look

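LOC100513097, a DR beta-like gene outside the tested set, had 1 value far from the others of its group. Diabetic replicate 4 stood at 0.0613 FPKM, which was 3 reads, and the next wound at 0.0145 FPKM, which was 1 read. All 4 non-diabetic wounds were listed at 0. The gap divided by the range was 0.763, above Dixon's 95% critical value for 7 wounds. This was 1 of 29 groups examined. The critical value, and its chance rate of about 1 of 20, assume normally spread values. Counts of 0, 1 and 3 reads are not spread in that way, so the flag carries little weight.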

How the results depend on the processing

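The fit was repeated under 21 alternatives, 11 of which left out 1 wound. All genes called higher and lower numbered 188 and 231. With array weights they numbered 406 and 416, without the 2 wounds that stood apart 106 and 81, and with 1 wound left out 104 to 236 and 75 to 247. The members called higher, 2 as reported, numbered 4 with array weights (SLA-DRA and CD74 added). They numbered 1 with no filter, with voom on recovered reads, with the library letter as covariate (SLA-DMA in these 3), with quantile normalisation (SLA-DOB) and without the 2 wounds that stood apart (SLA-DOA). With 1 wound left out they numbered 1 to 3. SLA-DMA was called in 18 of 21 alternatives, SLA-DOA in 8 and LOC100153139 in 20. The list genes called, 8 as reported, numbered 14 with array weights.

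Replicate numbers are shared between the groups, but the wounds come from different animals. Deviations of same-numbered wounds correlated at -0.27, 0.22, 0.07 and -0.48, so the numbers do not pair them. With the replicate block, 11 genes were called higher and 5 lower, 0 members and 0 list genes.

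The SLA-DQA1 log2 fold change turned to -0.15 with quantile normalisation, -0.028 with array weights and -0.030 without the 2 wounds, and ranged from -0.024 to 0.11 with 1 wound left out. SLA-DQB1 turned to -0.042 with quantile normalisation. The cause was not tested. Ratios with separate groups numbered 3 against SLA-DRA, 1 against CD74 and 1 against PTPRC. The median r with CIITA, 0.45, was 0.20 without the 2 farthest wounds, 0.88 after subtracting log2 PTPRC and 0.17 to 0.58 with 1 wound left out. Low counts limit SLA-DOB (30 reads at least) and the DR beta pseudogene. With 1 animal per group, no setting can separate diabetes from the animal.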
